A study of Homo sapiens with 12 samples.

Results

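The matrix metalloproteinases (MMPs) and their tissue inhibitors (TIMPs) were followed through loss of the aryl hydrocarbon receptor (AHR), a ligand-activated transcription factor, in the triple negative breast cancer lines MDA-MB-231 and SUM149. The 10 members were taken by name from the array table, as 8 proteases (MMP1, MMP2, MMP3, MMP7, MMP9, MMP10, MMP13 and MMP14) and 2 inhibitors (TIMP1 and TIMP3), out of 31720 gene-level features. RNA came from 12 arrays in 4 groups of 3. In each line, control cells had been transduced with Cas9 and no guide RNA, and AHR knockout (KO) cells with a lentiviral Cas9 vector carrying a guide against the first exon of AHR, so that all 4 groups carried Cas9. Transduced cells were selected with puromycin. MDA-MB-231 cells were grown in Dulbecco's modified Eagle's medium and SUM149 cells in F-12 K medium with hydrocortisone and insulin, and medium and line therefore cannot be told apart. The submitters' protocol describes plating of transduced cells at serial dilution, while the number of KO clones behind each group was not given in the sources used here. Differences between clones and loss of the AHR cannot be told apart in any KO comparison.

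MMPs are zinc-dependent endopeptidases that are made as inactive proenzymes and together can cleave most proteins of the extracellular matrix. Their groups are named for their substrates or their place in the cell. Collagenases cut fibrillar collagen, gelatinases cut denatured and basement membrane collagen, stromelysins and matrilysin have broad substrates that include other proenzymes, and the membrane-type enzyme MMP14 sits at the cell surface, where it activates proMMP2. TIMPs bind the active site of these enzymes and block them, and the balance of protease and inhibitor is known to bear on tumor cell invasion. The comparison of KO with control cells asked which of these transcripts depend on the AHR in each line. Transcripts were measured here, and proenzyme activation, secretion and activity were not.

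The 2 AHR target sequences that define the KO groups are shown because every KO comparison rests on them, and both lie in AHR on chromosome 7. They are printed whole in lower case, 5′ to 3′, with no part marked.
guide 1: cctacgccagtcgcaagcgg
guide 2: ccgagcgcgtcctcatcgcg
The sources used here do not say which guide a given KO array carried.

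All 10 members were matched by symbol to RefSeq (GRCh38.p14). MMP7 (chr11:102520508-102530747), MMP10 (chr11:102770502-102780628), MMP1 (chr11:102789919-102798160), MMP3 (chr11:102835801-102843609) and MMP13 (chr11:102942995-102955732) lie within 435.2 kb of chromosome 11, with MMP10 and MMP1 only 9.3 kb apart and MMP1 and MMP3 37.6 kb apart. The others lie alone, with MMP14 at chr14:22836585-22847758, MMP2 at chr16:55478830-55506691, MMP9 at chr20:46008908-46016561, TIMP3 at chr22:32801705-32863041 and TIMP1 at chrX:47582436-47586789. RefSeq promoters, running from 250 bases before to 50 bases after the gene start, were at hand for MMP7, MMP10, MMP14, TIMP1 and TIMP3. The AHR and its partner ARNT bind the core letters GCGTG, and AP-1, a classic regulator of MMP genes, binds letters of the form TGANTCA, which reads the same on both strands. Both were searched on both strands, and no match of one overlapped a match of the other. The 4 promoters of members that passed the test in a KO comparison are shown with these letters in capitals, since they differ in which of them they hold.
MMP7: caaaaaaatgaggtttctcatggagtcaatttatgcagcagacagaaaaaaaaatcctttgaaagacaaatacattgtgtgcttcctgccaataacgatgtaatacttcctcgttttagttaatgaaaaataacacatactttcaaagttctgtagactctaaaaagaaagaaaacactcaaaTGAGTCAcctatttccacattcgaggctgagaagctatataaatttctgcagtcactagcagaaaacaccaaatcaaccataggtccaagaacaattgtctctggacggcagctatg
MMP14: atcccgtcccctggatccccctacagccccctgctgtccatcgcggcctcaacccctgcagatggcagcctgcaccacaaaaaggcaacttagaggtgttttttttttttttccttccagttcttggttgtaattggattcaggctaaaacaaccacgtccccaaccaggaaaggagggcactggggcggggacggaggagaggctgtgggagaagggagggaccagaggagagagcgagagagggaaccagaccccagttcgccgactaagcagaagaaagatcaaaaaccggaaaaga
TIMP1: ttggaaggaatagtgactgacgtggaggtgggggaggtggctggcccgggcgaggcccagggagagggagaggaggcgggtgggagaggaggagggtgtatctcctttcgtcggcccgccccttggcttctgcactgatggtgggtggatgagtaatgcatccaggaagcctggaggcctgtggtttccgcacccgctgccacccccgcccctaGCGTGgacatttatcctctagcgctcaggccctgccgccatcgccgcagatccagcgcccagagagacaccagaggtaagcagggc
TIMP3: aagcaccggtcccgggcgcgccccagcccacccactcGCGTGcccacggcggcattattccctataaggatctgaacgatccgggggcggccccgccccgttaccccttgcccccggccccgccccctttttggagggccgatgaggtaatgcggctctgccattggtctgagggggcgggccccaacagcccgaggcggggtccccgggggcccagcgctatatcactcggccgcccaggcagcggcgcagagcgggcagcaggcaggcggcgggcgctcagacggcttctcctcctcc
Their positions are chr11:102530698-102530997, minus strand for MMP7, chr14:22836335-22836634, plus strand for MMP14, chrX:47582186-47582485, plus strand for TIMP1 and chr22:32801455-32801754, plus strand for TIMP3. Counted from the gene start, GCGTG was found at position -36 in TIMP1 and -213 in TIMP3, and 36.5% of 35116 RefSeq promoters of the same length hold it. TGANTCA was found at position -67 in MMP7, as TGAGTCA, and at -67 in MMP10, as TGAATCA, against 7.71% of all promoters. Neither was found in the MMP14 window. A match of this kind is a description of the letters and not of binding.

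The values are log2 levels made by the authors with RMA, which puts all arrays on near-equal distributions. Within groups, correlations between arrays over all features were at least 0.994, and the median feature had a replicate SD of 0.108 to 0.115 in the 4 groups. The 3 arrays of a group carry replicate numbers, and nothing read here ties each to a culture of its own, so the p-values rest on the spread of these arrays alone, and that spread may be technical. Neither the files nor the reference pair other Ensembl IDs with names, and the AHR transcript, epithelial or mesenchymal markers and the remaining MMP and TIMP genes were therefore not read here. In bulk RNA, fewer cells that make a transcript and less of it per cell cannot be told apart. Genes were tested with limma over all features with Benjamini-Hochberg adjustment, and adjusted values up to 0.05 counted as calls.

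In Cas9 control cells the 2 lines carried different sets of these transcripts. MDA-MB-231 had far more MMP1, MMP14 and TIMP3 RNA, and SUM149 had more MMP9, MMP7, MMP2 and MMP13. Of the 10 members, 3 were lower and 4 higher in SUM149, where 18.1% and 17.3% of all features passed the test in those directions. The median size of the difference, without regard to sign, was 1.30 on the log2 scale for the members and 0.20 for all features. In either direction that is 7 of 10 members beside 35.4% of all features. The arrays of the lines lay apart for the same members, 3 lower and 4 higher, as they did for 24.0% and 21.4% of all features. MMP3, MMP10 and TIMP1 did not pass the test.

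TIMP3 (ENSG00000100234_at), an inhibitor that is held in the matrix and blocks a broad range of metalloproteinases, differed most. Its level was 11.24, 11.20 and 11.14 on the 3 MDA-MB-231 control arrays and 3.92, 3.26 and 3.79 on those of SUM149. The groups lay far apart, at a log2 difference of -7.54 (standard error 0.13, adjusted p = 7.92e-12 from limma), the largest fall from MDA-MB-231 to SUM149 of all 31720 features. The SUM149 controls lay near the array medians of 3.62 to 3.70, and no background measurement is at hand, so the size of the difference is less certain than its direction. MMP1 (ENSG00000196611_at), the interstitial collagenase, read 9.13, 9.01 and 9.03 in MDA-MB-231 controls and 3.63, 3.01 and 3.40 in SUM149 controls. This was a log2 difference of -5.71 (standard error 0.16, adjusted p = 1.89e-10 from limma), or 52.4-fold, and its size is uncertain in the same way, since 2 of the 3 SUM149 control arrays and all 3 SUM149 KO arrays were below their medians. MMP14 (ENSG00000157227_at) was 8.88, 8.89 and 9.0 in MDA-MB-231 controls and 5.85, 5.75 and 5.69 in SUM149 controls, 8.97-fold lower in SUM149.

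The gelatinase MMP9 (ENSG00000100985_at) ran the other way, with 4.24, 4.34 and 4.31 in MDA-MB-231 controls and 6.44, 6.19 and 6.41 in SUM149 controls. It was 4.14-fold higher in SUM149 (log2 difference 2.05, standard error 0.09, adjusted p = 1.02e-08 from limma). MMP7 (ENSG00000137673_at), the small matrilysin of epithelial cells, was 2.91-fold higher, MMP2 (ENSG00000087245_at) 2.09-fold and MMP13 (ENSG00000137745_at) 1.52-fold higher. The last 3 read between 2.70 and 3.63 in MDA-MB-231 controls, where all 3 were below the median of every array. TIMP1 (ENSG00000102265_at), a secreted inhibitor, lay at 11.13 to 11.32 in MDA-MB-231 and 11.28 to 11.34 in SUM149, a log2 difference of 0.09 with a 95% interval of -0.05 to 0.22. MMP3 (ENSG00000149968_at) and MMP10 (ENSG00000166670_at), the 2 stromelysins, differed by -0.34 (interval -0.68 to 0.00, adjusted p = 0.12) and -0.21 (interval -0.42 to 0.01, adjusted p = 0.135). Over the alternatives their adjusted p from limma ran from 0.0234 to 0.351 and from 0.0406 to 0.39. MMP3 passed without SUM149 control replicate 2 (0.0234), and MMP10 without SUM149 control replicate 3 (0.0406). MMP10 lay in the dimmest 33.3% of features on all 12 arrays.

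**Figure D1:**
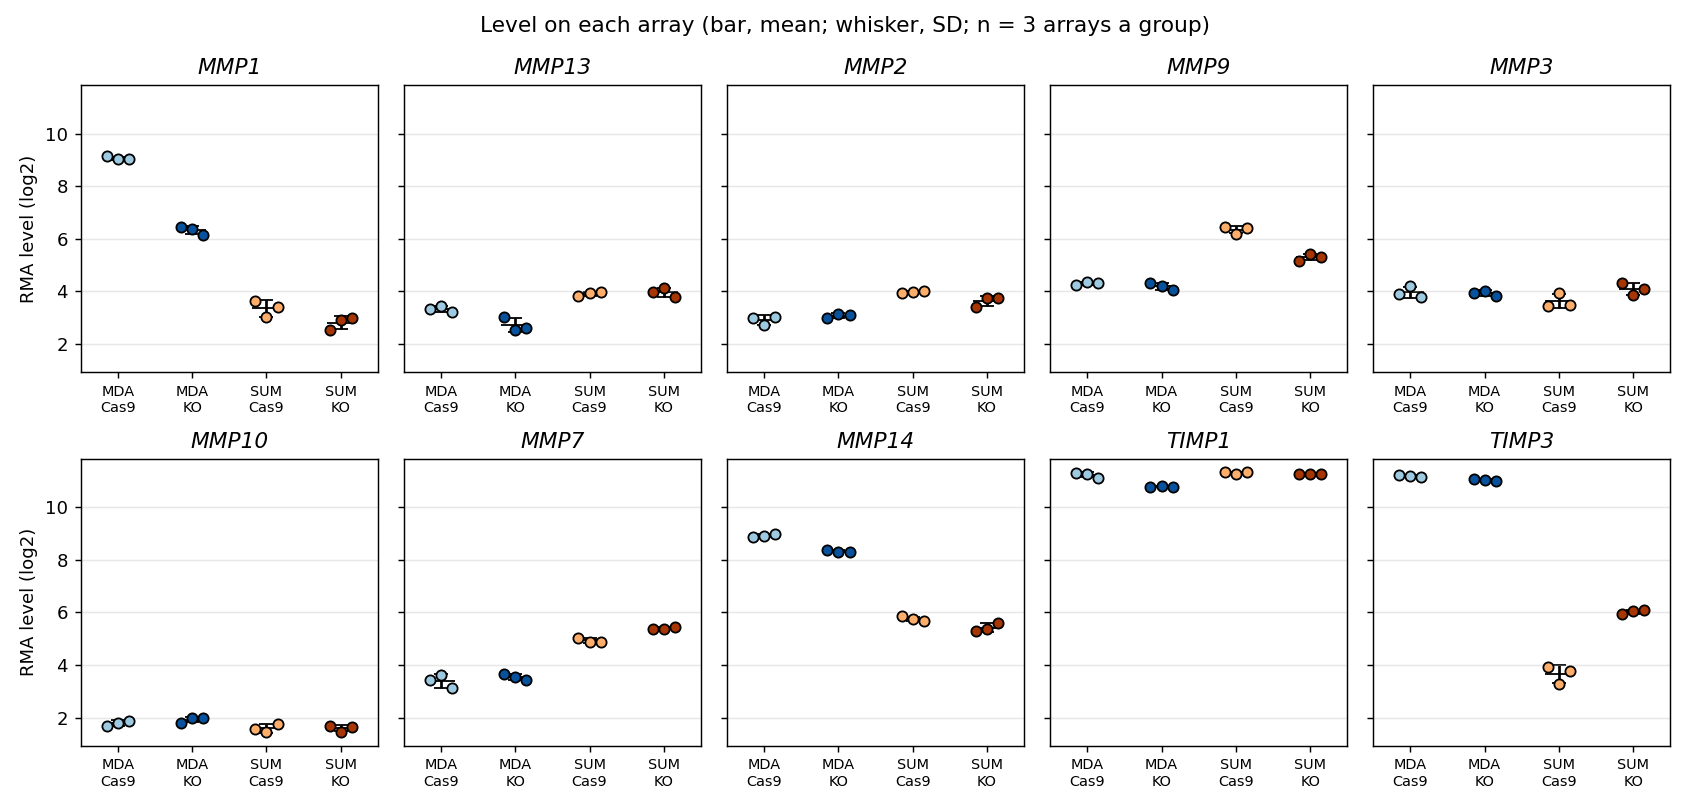
RMA level (log2, vertical axis) of each member on every array, with MDA for MDA-MB-231, SUM for SUM149, Cas9 for Cas9 control and KO for AHR KO; points are arrays, bars the mean and whiskers the SD of 3 arrays. MMP1 stood near 9 in MDA-MB-231 controls and between 6.15 and 6.46 in their KO cells, and TIMP3 stood between 3.26 and 3.92 in SUM149 controls and between 5.95 and 6.09 in their KO cells.

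In MDA-MB-231, AHR KO cells had less RNA of 2 collagenases, the membrane-type protease and 1 inhibitor. MMP1, MMP13, MMP14 and TIMP1 fell, 4 of 10 members, where 2.19% of all features were called lower. In either direction 3.92% of all features passed. By limma 0 members were called higher, and 0 were higher at an unadjusted p below 0.05, while 1.73% of all features were called higher and 11.2% had KO arrays above every control. The members' median log2 fold change was -0.13, beside 0.00 for all features.

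MMP1 changed most. Its level was 9.13, 9.01 and 9.03 on the control arrays and 6.46, 6.37 and 6.15 on the KO arrays, and no KO array came near the controls. The log2 fold change was -2.73 (standard error 0.16, adjusted p = 4.1e-06 from limma), a 6.65-fold fall with a 95% interval of 5.21 to 8.47, and it was number 3 among the falls of all 31720 features. MMP14 was 8.88, 8.89 and 9.0 in controls and 8.37, 8.31 and 8.29 in KO cells. The arrays did not overlap, and the fall was 1.52-fold (log2 fold change -0.60, standard error 0.09, adjusted p = 0.00261 from limma). TIMP1 was 11.32, 11.25 and 11.13 in controls and 10.79, 10.83 and 10.78 in KO cells, again without overlap. It fell 1.35-fold (log2 fold change -0.43, standard error 0.06, adjusted p = 0.00239 from limma), and its pooled replicate SD of 0.05 was the smallest of the 10 members.

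MMP13, the collagenase of cartilage and of many carcinomas, read 3.31, 3.43 and 3.2 in controls and 3.00, 2.53 and 2.61 in KO cells. The KO arrays were all lower, but all 6 arrays were below their own medians and 2 of the KO arrays were in the dimmest 33.3%. The log2 fold change was -0.60 (standard error 0.13, adjusted p = 0.0241 from limma). It missed the threshold without control replicate 1 (0.0721), control replicate 2 (0.0898), KO replicate 2 (0.0923) or KO replicate 3 (0.0945). The call was also lost on the line's own 6 arrays (0.102) and with replicate number as a block within line (0.0819). Over the alternatives its adjusted p ran from 0.00549 to 0.102. TIMP3 was 11.24, 11.20 and 11.14 in controls and 11.07, 11.04 and 11.01 in KO cells, where the arrays did not overlap either. Its log2 fold change of -0.16 (interval -0.45 to 0.14) did not pass the test (adjusted p = 0.652 from limma). TIMP3 stood at percentile 99.8 or higher on these arrays, and whether its probes still responded in proportion at that level was not tested. Arrays lay apart in the lower direction for 5 members, namely MMP1, MMP13, MMP14, TIMP1 and TIMP3, as they did in 10.9% of all features.

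The gelatinases did not pass in MDA-MB-231. MMP9 gave 4.24, 4.34 and 4.31 in controls against 4.31, 4.21 and 4.05 in KO cells (log2 fold change -0.11, interval -0.31 to 0.10), and MMP2 gave 2.99, 2.70 and 3.01 against 2.98, 3.15 and 3.08 (0.17, interval -0.07 to 0.41). Control and KO arrays overlapped for both. MMP3, MMP10 and MMP7 had log2 fold changes of -0.03, 0.12 and 0.14, with intervals of -0.37 to 0.31, -0.09 to 0.34 and -0.11 to 0.40.

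**Figure D2:**
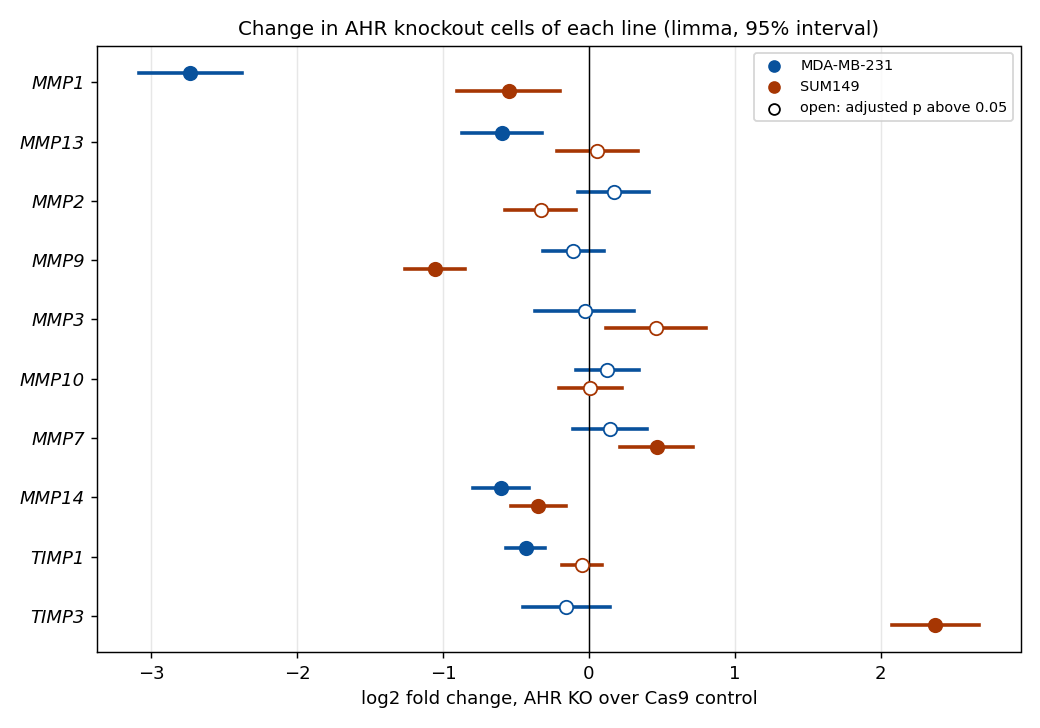
log2 fold change of AHR KO over Cas9 control (horizontal axis) for each member in MDA-MB-231 and SUM149, with 95% intervals from limma; filled points passed an adjusted p of 0.05. MMP1 at -2.73 in MDA-MB-231 and TIMP3 at 2.37 in SUM149 lay farthest from 0, in opposite directions and in different lines.

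In SUM149, AHR KO cells had less MMP9, MMP1 and MMP14 RNA and more TIMP3 and MMP7 RNA. Thus 3 of 10 members fell and 2 rose, where 8.23% of all features were called lower and 8.59% higher, or 16.8% in either direction. With MDA-MB-231, 7 of 10 members were called in at least 1 line, beside 18.9% of all features. The members' median log2 fold change was -0.02, beside 0.01 for all features, and the median size was 0.40 beside 0.13.

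TIMP3 rose most. It was at 3.92, 3.26 and 3.79 in controls and at 5.95, 6.05 and 6.09 in KO cells, with a wide gap between the groups. The log2 fold change was 2.37 (standard error 0.13, adjusted p = 6.09e-07 from limma), a 5.18-fold rise with an interval of 4.22 to 6.37, and it was number 13 among the rises of all features. Even so, TIMP3 in SUM149 KO cells remained 32.2-fold below MDA-MB-231 KO cells. Its SUM149 controls lay near the array medians of 3.62 to 3.70, so the size of the rise is less certain than its direction. MMP9, a gelatinase that cuts basement membrane collagen, was 6.44, 6.19 and 6.41 in controls and 5.16, 5.40 and 5.31 in KO cells. The groups were well separated, and the fall was 2.08-fold (log2 fold change -1.06, standard error 0.09, adjusted p = 1.75e-05 from limma). MMP7 was 5.05, 4.86 and 4.89 in controls and 5.37, 5.38 and 5.44 in KO cells, all of which were higher. It rose 1.38-fold (log2 fold change 0.46, standard error 0.11, adjusted p = 0.0152 from limma), but missed the threshold without control replicate 2 (0.0577), control replicate 3 (0.054) or KO replicate 3 (0.0526), with a range of 0.00382 to 0.0577 over the alternatives.

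MMP14 and MMP1 were also called lower in this line, with smaller measured falls than in MDA-MB-231, and both calls depended on single arrays. For MMP14 the difference between the lines did not pass the test (adjusted p = 0.228 from limma). MMP14 was 5.85, 5.75 and 5.69 in controls and 5.28, 5.35 and 5.61 in KO cells, with KO replicate 3 just under the lowest control. The log2 fold change was -0.35 (standard error 0.09, adjusted p = 0.0166 from limma), a 1.27-fold fall. It missed the threshold without control replicate 1 (0.0694), KO replicate 1 (0.0692) or KO replicate 2 (0.0624), and on the line's own 6 arrays (0.0754), over a range of 0.0024 to 0.0754. MMP1 was 3.63, 3.01 and 3.40 in controls and 2.51, 2.90 and 2.97 in KO cells, and the highest KO array lay just under the lowest control. Its log2 fold change was -0.55 (standard error 0.16, adjusted p = 0.0352 from limma), and 5 of these 6 arrays were below their own medians. The call was lost without control replicate 1 (0.132), control replicate 3 (0.101), KO replicate 1 (0.13) or KO replicate 2 (0.054), and on the line's own 6 arrays (0.112), over a range of 0.00742 to 0.132.

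MMP2 was 3.92, 3.96 and 4.01 in SUM149 controls and 3.40, 3.76 and 3.74 in KO cells. The arrays did not overlap, but the log2 fold change of -0.33 (interval -0.58 to -0.09) had an adjusted p of 0.0659 from limma. Without MDA-MB-231 control replicate 2 that p was 0.04, and with the dimmest features removed 0.0422, in a range of 0.04 to 0.217. MMP3 read 3.44, 3.93 and 3.49 in controls and 4.30, 3.84 and 4.09 in KO cells, with overlap, at a log2 fold change of 0.46 (interval 0.12 to 0.80) and an adjusted p of 0.0697. It passed without control replicate 2 (0.0178) or KO replicate 2 (0.0391), in a range of 0.0178 to 0.224. Arrays lay apart in the lower direction for MMP1, MMP2, MMP9 and MMP14, 4 members beside 15.1% of all features, and in the higher direction for MMP7 and TIMP3, 2 members beside 16.7%. MMP13, MMP10 and TIMP1 had log2 fold changes of 0.06, 0.01 and -0.05, with intervals of -0.22 to 0.34, -0.21 to 0.23 and -0.18 to 0.09. TIMP1 stood at percentile 99.7 or higher on every array, and whether its probes still responded in proportion at that level was not tested.

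By limma's interaction contrast, 5 of the 10 members responded to the knockout differently in the 2 lines, beside 13.2% of all features. The contrast was below 0 for 1 of them and above 0 for 4, beside 6.47% and 6.69% of all features. The contrast is the SUM149 log2 fold change minus that of MDA-MB-231. It was 2.53 for TIMP3 (standard error 0.19, adjusted p = 9.84e-06), which rose in SUM149 and did not pass in MDA-MB-231. The size of that rise is uncertain, since TIMP3 in SUM149 controls lay near the array medians. In MDA-MB-231 TIMP3 stood at percentile 99.8 or higher on every array, and whether its probes responded in proportion there was not tested. The contrast was 2.18 for MMP1 (standard error 0.23, adjusted p = 9.59e-05), whose measured fall was larger in MDA-MB-231. MMP1 started at 3.34 ± 0.31 (SD, n = 3) in SUM149 controls, below the array medians of 3.62 to 3.70, and at 9.06 ± 0.06 in MDA-MB-231 controls, and a smaller response and a fall cut short by dim signal cannot be told apart. MMP9 had -0.95 (standard error 0.13, adjusted p = 0.000759), since its fall was in SUM149. TIMP1 had 0.39 (standard error 0.09, adjusted p = 0.0131), since its fall was in MDA-MB-231, and its adjusted p ran from 6.64e-05 to 0.0577 over the alternatives. MMP13 had 0.65 (standard error 0.18, adjusted p = 0.0331), and it missed the threshold in 9 of 12 fits without 1 array, at 0.0548 to 0.0798, the exceptions being those without MDA-MB-231 control replicate 3, MDA-MB-231 KO replicate 1 or SUM149 KO replicate 3. Over the alternatives its adjusted p ran from 0.00588 to 0.0798.

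MMP14 did not pass this contrast (0.26, interval -0.01 to 0.53, adjusted p = 0.228), which does not show that the falls were equal. MMP2 (-0.50, adjusted p = 0.0591), MMP3 (0.49, 0.197), MMP7 (0.32, 0.259) and MMP10 (-0.11, 0.694) did not pass it either. MMP2 passed with the dimmest features removed (0.037), in a range of 0.037 to 0.126. MMP7 passed without MDA-MB-231 control replicate 3 (0.0495), in a range of 0.0495 to 0.442. By role, the members that passed were both collagenases, both inhibitors and 1 of the 2 gelatinases. Among these, the calls of the collagenase MMP13 and the inhibitor TIMP1 were lost under some alternatives.

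With 1 knockout effect fitted for both lines, MMP1 and MMP14 were called lower, 2 of 10 members, where 2.12% of all features were called lower and 3.78% in either direction. The log2 fold change was -1.64 for MMP1 (standard error 0.33, adjusted p = 0.0173 from limma) and -0.47 for MMP14 (standard error 0.07, adjusted p = 0.00424). A difference between lines enters the spread of this fit. The call for MMP1 was lost with unmoderated statistics (adjusted p = 0.0506) and at the stricter threshold of 0.01. It was also lost with replicate number as a block within line (0.13), in a range of 0.0126 to 0.13 over the alternatives. The fall of MMP14 was 1.39-fold, under the 1.5-fold that one alternative asked for. Its call was lost with the same block (0.0667), in a range of 0.000921 to 0.0667, and that setting left 0 members called. MMP1 and MMP14 were also the 2 members called lower in both lines, as 0.631% of all features were, while 0 were called higher in both, beside 0.299%. In SUM149 both calls depended on single arrays. Both were lost when that line's own 6 arrays were fitted alone (adjusted p from limma 0.112 for MMP1 and 0.0754 for MMP14). For the same 2 members KO arrays were below all controls of their line in both lines, beside 2.64% of features, and for 0 members above them, beside 2.38%. An exact permutation of the genotype labels within lines (two-sided, 400 relabellings) gave an unadjusted p = 0.005 for each of them, the smallest it can give. Any feature whose arrays lie apart the same way in both lines must get this value, so it adds no support to that separation.

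Of the other members in that fit, 0 were called higher by limma, beside 1.66% of all features, although MMP7 and TIMP3 were 2 that were higher at an unadjusted p below 0.05. MMP9 had -0.58 (standard error 0.15) and an adjusted p of 0.0528, just past the threshold. It passed without MDA-MB-231 control replicate 1 (0.0447) or MDA-MB-231 KO replicate 1 (0.0379), in a range of 0.0335 to 0.217. On all arrays MMP9 passed with a variance trend and robust moderation (0.0335), the dimmest features removed (0.0371) or arrays centred on their median (0.0497). MMP7 had 0.30 (standard error 0.09, adjusted p = 0.0927), with 0.0249 without MDA-MB-231 control replicate 2, in a range of 0.0249 to 0.201. TIMP1 had -0.24 (adjusted p = 0.0944, and 0.0323 with a variance trend and robust moderation, range 0.0323 to 0.275) and TIMP3 1.11 (standard error 0.37, adjusted p = 0.125). The permutation gave p = 0.01 for TIMP1, 0.015 for MMP9, 0.02 for MMP7 and 0.1 for TIMP3. The fitted value of TIMP3 averages a rise in SUM149 with a change in MDA-MB-231 that did not pass and describes neither line.

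Placed in order along chromosome 11, the nearest neighbours of MMP1 did not pass the test in MDA-MB-231, where MMP1 fell most. In MDA-MB-231, MMP10, 9.3 kb to one side, had a log2 fold change of 0.12 and MMP3, 37.6 kb to the other, had -0.03, beside -2.73 for MMP1. MMP10 was in the dimmest 33.3% of features on all 12 arrays, and MMP3 lay near the array medians at 3.79 to 4.19 in MDA-MB-231 controls. Neither had the level from which MMP1 fell, and whether a fall of that size could have been seen in them was not tested. MMP13, at the far end, was called lower in MDA-MB-231, and MMP7, at the near end, was called higher in SUM149. The differences between neighbouring genes were not tested.

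**Figure D3:**
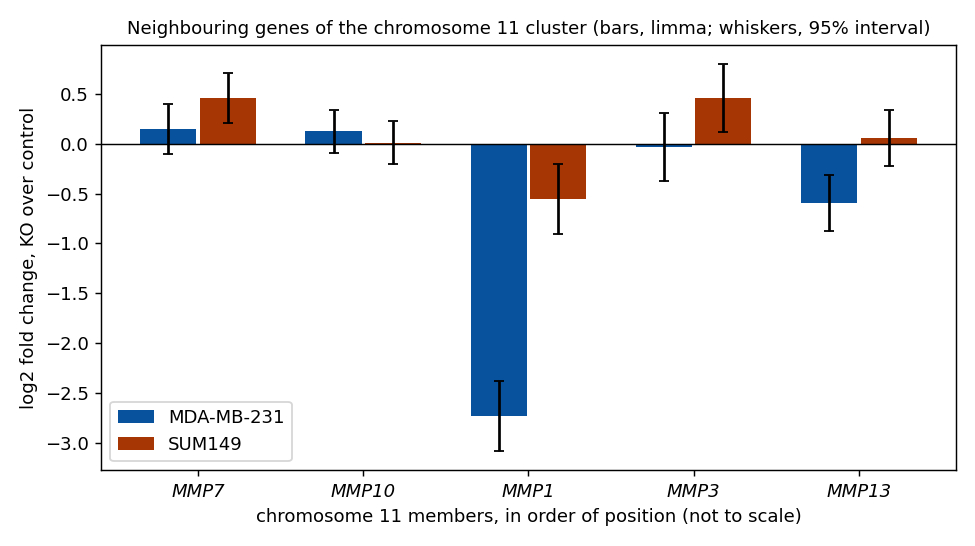
log2 fold change of AHR KO over Cas9 control (vertical axis) of the 5 chromosome 11 members in order of position, in MDA-MB-231 and SUM149, with 95% intervals from limma. MMP1 at -2.73 in MDA-MB-231 lies between MMP10 at 0.12 and MMP3 at -0.03, which were dim or near the array median in that line's controls.

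In AHR KO cells the lines still differed in most of these transcripts. Here 4 members were lower and 5 higher in SUM149, where 19.0% and 18.2% of all features were called, and 37.3% in either direction. Their arrays also lay apart, as those of 24.3% and 22.4% of all features did in the 2 directions. The 7 members that differed between the control lines also differed here in the same direction. Thus 7 of 10 members were called in both comparisons of the lines, beside 25.2% of all features. Most line differences of other features persisted too, since 11235 features were called between the control lines and 7989 in both comparisons in the same direction. The gap in MMP1 was 52.4-fold in controls and 11.6-fold in KO cells, that in TIMP3 186-fold and 32.2-fold, and that in MMP9 4.14-fold and 2.14-fold. These 3 gaps were narrower in KO cells, which is the interaction contrast given above in other terms, and the limit of dim signal holds for the MMP1 and TIMP3 gaps too. The gap in MMP13 was wider, at 1.52-fold and 2.39-fold, but every MDA-MB-231 array read MMP13 below its median. The interaction contrast of MMP13 missed the threshold in 9 of 12 fits without 1 array.

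TIMP1, which did not pass between the control lines, was 10.79, 10.83 and 10.78 in MDA-MB-231 KO cells and 11.25, 11.28 and 11.29 in SUM149 KO cells. It was 1.39-fold higher in SUM149 (log2 difference 0.47, standard error 0.06, adjusted p = 6.85e-05 from limma). MMP14, at 8.97-fold in controls and 7.51-fold in KO cells, and MMP7, at 2.91-fold and 3.62-fold, kept gaps whose change did not pass the interaction contrast. MMP10 was called lower in SUM149 KO cells (log2 difference -0.32, standard error 0.10, adjusted p = 0.0231 from limma), with all of its arrays in the dimmest 33.3%. That call was lost without MDA-MB-231 KO replicate 2 (0.0728), MDA-MB-231 KO replicate 3 (0.0771) or SUM149 KO replicate 2 (0.0898), and with arrays centred on their median (0.06), in a range of 0.0143 to 0.0898. MMP3 did not pass (0.15, interval -0.19 to 0.49).

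**Figure D4:**
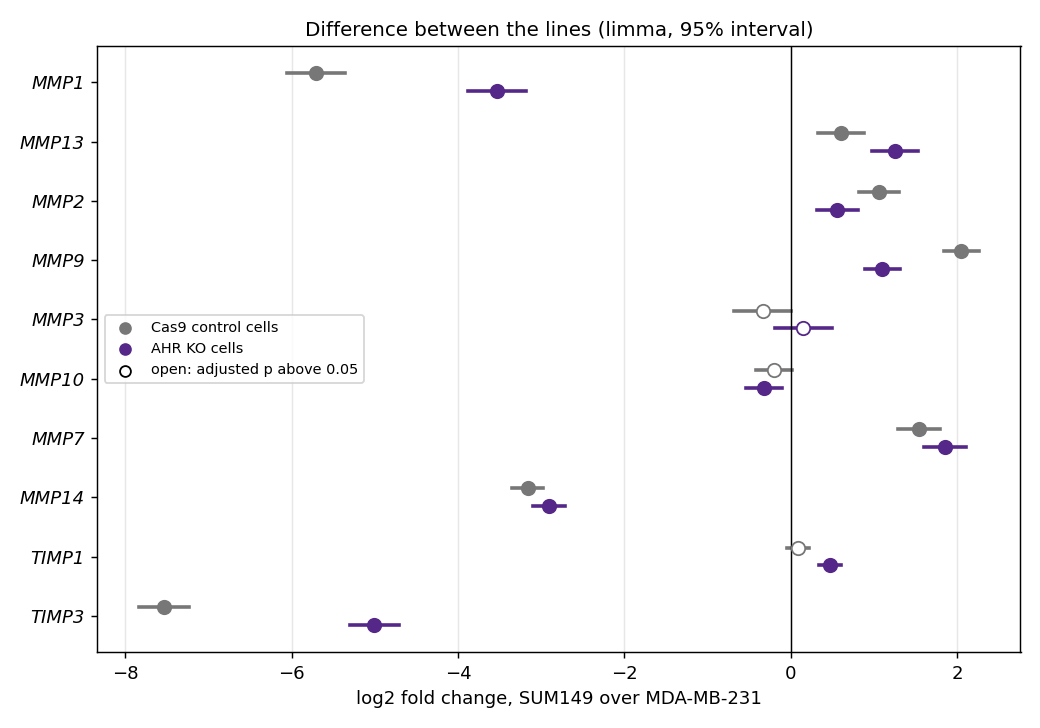
log2 fold change of SUM149 over MDA-MB-231 (horizontal axis) for each member in Cas9 control and AHR KO cells, with 95% intervals from limma; filled points passed an adjusted p of 0.05. TIMP3 moved from -7.54 in controls to -5.01 in KO cells and MMP1 from -5.71 to -3.53, while MMP7, MMP9, MMP2 and MMP13 lay above 0 in both.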

How the data were processed

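Total RNA from Cas9 control and AHR KO cells of both lines was hybridized to 12 Affymetrix arrays, 3 a group, and groups were taken from the submitters' sample titles. The authors deposited gene-level values on a log2 scale, computed by RMA. The submitters' processing notes name affy 1.48.0 and R 3.2.3. RMA corrects background, equalizes array distributions by quantiles and summarises probes, which hides any shift common to most genes. What defined the probe sets, and on which build, is not given in the sources used here. Array number limits the precision, and 3 against 3 cannot reach an exact p below 0.1.

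All 31720 features entered limma 3.58.1 (R 4.3.3), as 4 group means (8 residual degrees of freedom), or cell line plus 1 knockout effect (9), with eBayes moderation. Member symbols came with the selection rule, since the reference named 0 IDs, and the further gene lists and markers that had been planned were not run. The members and lists were chosen with earlier results of these data known, and all 10 members are named. Steps were tested on simulated data, and plots were drawn with Python 3.11.15 and matplotlib 3.10.9. Alternatives changed moderation, threshold, dim-feature filter (lowest 33.3%), array centring, replicate block, arrays in the fit and each array left out.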

Additional observations from a re-analysis of the deposited data

Results flagged for a closer look

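In 5 members the knockout effect differed between the lines by limma's interaction contrast (the SUM149 log2 fold change minus that of MDA-MB-231), and this difference is what singled them out. TIMP3 had 2.53, from 2.37 in SUM149 and -0.16 in MDA-MB-231, where every array read TIMP3 at percentile 99.8 or higher. MMP1 had 2.18, from -0.55 and -2.73, and the SUM149 level lay below the array median on 5 of 6 arrays. MMP9 had -0.95, from -1.06 and -0.11. MMP13 had 0.65, from 0.06 and -0.60, with all 6 MDA-MB-231 arrays below their medians. TIMP1 had 0.39, from -0.05 and -0.43.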

How the results depend on the processing

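Over 1164 values of single members under the alternatives, 1080 kept their direction and their side of the threshold, 57 lost a call, 20 gained one and 7 reversed, all 7 being members that did not pass. With 1 array left out, the log2 fold change of MMP3 in MDA-MB-231 had values of -0.12 to 0.082, that of MMP10 in SUM149 -0.065 to 0.10 and that of MMP13 in SUM149 -0.021 to 0.15. Across the lines, 4 members were lower with a variance trend and robust moderation (MMP9 and TIMP1 added), 1 with unmoderated statistics (MMP1 at an adjusted p of 0.0506, range 0.0126 to 0.13), 1 at an adjusted p of 0.01 and 1 when the change also had to reach 1.5-fold. In SUM149, 2 were called (1 lower, 1 higher) at an adjusted p of 0.01, likewise 2 (1 and 1) at 1.5-fold or more, and 3 (1 lower) with the 6 SUM149 arrays fitted alone. For the difference between lines, 2 were lower with the dimmest features removed, where MMP2 was added, and 3 passed at an adjusted p of 0.01, 2 of them higher. Between the KO lines, 3 were higher at 1.5-fold or more. Stricter thresholds can only lower a count, and other causes were not tested.

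Without 1 array, 0 to 1 members were higher across the lines, and in SUM149 1 to 4 were lower, 1 to 3 higher and 3 to 6 called in all.

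When replicate numbers entered as a replicate block, nested in the line, 0 members were called across the lines by limma (4 lower and 2 higher at an unadjusted p below 0.05), with adjusted p of 0.13 for MMP1 and 0.0667 for MMP14. The block left 3 called in SUM149, 1 of them lower, and 3 for the difference between lines, 2 of them higher, where TIMP1 (adjusted p = 0.0577) and MMP13 (0.072) lost their calls. Over all features, the deviations of arrays that share a number had correlations of -0.017 to 0.035, with 0 of 6 pairs above 0.1. These values gave no sign of pairing over all features, but they cannot exclude it for single genes or show how the arrays were handled. A block over all 4 groups, chosen after the data were seen for the comparisons between lines, changed no count there by more than 1.5 times. MMP10 gave no value with the dimmest features removed, and the number of arrays and dim signal limit what can be called.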
